A study of Mus musculus with 12 samples.

Results

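The 44 genes described here belong to the NF-kB pathway and to the cytokines and chemokines that it controls. They were taken by name from the 34745 genes of the deposited expression table, and all 44 were found there. The members comprised 5 NF-kB subunits, 4 genes of the IKK complex and related kinases, and 7 inhibitors and feedback regulators. A further 4 were grouped as adaptors (Traf1, Birc2, Birc3 and Tnfaip2), and 2 were adhesion molecules. The others were 5 cytokines, 3 colony-stimulating factors, 8 chemokines, 2 enzymes and 4 acute phase or complement genes. RNA was sequenced from MLE-12 cells, an immortalized mouse line of lung AT II cells, in 4 groups of 3 libraries, all labelled 24 h. The LPS group received 100 ng/mL LPS in 21% oxygen. The LPS + M2-Exo group received the same LPS followed by 10 µg/mL M2-Exo, which are exosomes collected from a mouse alveolar macrophage line that had been polarised with IL-4. The Hyp group was held in 85% oxygen without LPS, and the Hyp + M2-Exo group was held in 85% oxygen and given the same dose of M2-Exo. Both are cell models of bronchopulmonary dysplasia, a lung disease of preterm infants. No untreated library was analysed here, so a member described as higher in LPS was higher than in hyperoxia and not than in resting cells. Nothing in the labels says that the 3 libraries of a group came from separate cultures, so the p-values measure only the spread between these libraries, which may be technical.

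NF-kB is a family of dimeric transcription factors that resting cells hold in the cytoplasm by IkB proteins. LPS binds CD14, MD-2 and TLR4, and TNF and IL-1 bind their own receptors, and all of them activate the IKK complex, which phosphorylates IkB and marks it for destruction. The freed dimers enter the nucleus and switch on cytokines, chemokines, adhesion molecules and acute phase proteins, together with inhibitors such as IkBα and A20 that turn the signal off again. In the lung, AT II cells are a source of the chemokines that draw neutrophils and monocytes into the alveoli.

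Total counts per library ranged from 18700207 to 19185116 in LPS, from 16021833 to 18505941 in LPS + M2-Exo, from 22035335 to 24074616 in Hyp and from 20231632 to 23414010 in Hyp + M2-Exo. Depth thus differed with the model, and the model cannot be told apart from depth or from any batch that it shared. Of 10 epithelial and AT II markers, Sftpc, Nkx2-1, Abca3 and Krt8 were at 1 FPKM (fragments scaled to the length of the gene and the size of the library) or more in every library. Cdh1 reached 1 FPKM in the 6 libraries with LPS and Sftpb in the 6 from hyperoxia, whereas Epcam, Krt7, Krt18 and Cldn4 were under 1 FPKM in every library. Markers of macrophages were also present in every library. The 15 macrophage markers summed to 219.7, 217.3 and 193.5 FPKM in LPS, 169.8, 156.8 and 175.9 FPKM in LPS + M2-Exo, 60.4, 63.4 and 63.5 FPKM in Hyp and 68.6, 53.8 and 46.7 FPKM in Hyp + M2-Exo. Every LPS library lay above every LPS + M2-Exo library, and these lay above all 6 hyperoxia libraries. Of the 13 macrophage markers tested, 11 were higher in LPS than in Hyp, among them Ptprc, Adgre1, Csf1r, Spi1 and Lyz2, and 1, Itgax, was lower, where 37.8% of all genes tested were higher and 38% lower. Itgax had 0, 3 and 0 counts in LPS and 13, 22 and 30 in Hyp, and Marco had 57, 72 and 80 in LPS and 0, 0 and 1 in Hyp. Each passed the filter on low counts through its higher group alone, so its direction was fixed. Arg1 had at most 3 counts in any library and Chil3 had 0 in all of them. The fibroblast gene Dcn alone made up most of a fibroblast list that summed to 367.5–375.2 FPKM in LPS and 159.3–173 FPKM in Hyp, and 6 endothelial markers summed to at most 3.44 FPKM in any library. The part of macrophage RNA in the results below was not tested, and in such bulk libraries fewer cells of a type and less RNA per cell cannot be told apart.

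**Figure D1:**
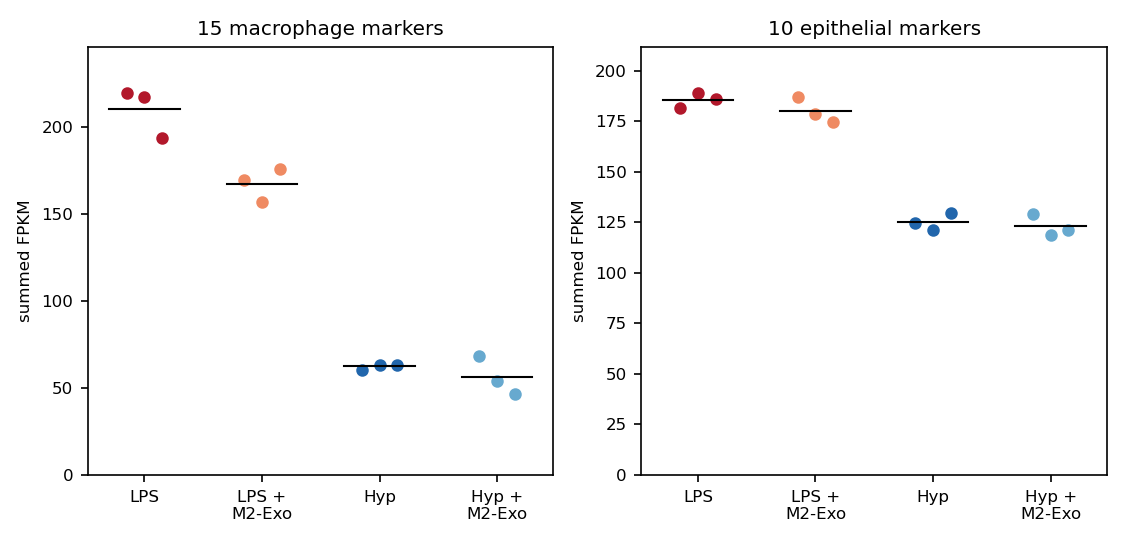
Summed FPKM of 15 macrophage markers (left) and 10 epithelial and AT II markers (right) in each library of the 4 groups. Each point is 1 library and each line the mean of 3. The macrophage sum was 193.5 to 219.7 in LPS and 60.4 to 63.5 in Hyp, and the epithelial sum was 181.5 to 188.9 in LPS and 121.2 to 129.8 in Hyp.

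NF-kB dimers bind the kappaB site, a sequence of 10 bases near the start of many target genes. RefSeq promoters of GRCm38.p6, each reaching from 250 bases before to 50 bases after a start, were matched by symbol for 31 of the 44 members. Both strands were searched for the kappaB consensus, and 13 of the 31 members held it, against 9.55% of all 27025 symbols with a promoter. The sequences below are shown because the consensus was found in members on either side of the comparison between LPS and hyperoxia. Each is a stretch of 60 bases read 5′ to 3′ on the strand of the gene and ending before its start, with the bases that match the consensus in capitals.
Cxcl2 (chr5:90903778-90903837, plus strand): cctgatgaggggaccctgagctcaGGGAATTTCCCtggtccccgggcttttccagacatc
Nfkbie (chr17:45555569-45555628, plus strand): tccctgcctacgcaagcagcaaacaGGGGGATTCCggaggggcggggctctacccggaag
Tnip1 (chr11:54962962-54963021, minus strand): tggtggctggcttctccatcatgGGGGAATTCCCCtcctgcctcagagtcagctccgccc
Nfkbia (chr12:55492648-55492707, minus strand): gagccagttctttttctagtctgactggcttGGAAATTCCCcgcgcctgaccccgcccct
Cxcl1 (chr5:90891150-90891209, plus strand): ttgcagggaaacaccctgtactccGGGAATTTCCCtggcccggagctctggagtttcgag
Il6 (chr5:30013045-30013104, plus strand): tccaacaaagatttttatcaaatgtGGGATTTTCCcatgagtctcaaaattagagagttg
Ccl20 (chr1:83116661-83116720, plus strand): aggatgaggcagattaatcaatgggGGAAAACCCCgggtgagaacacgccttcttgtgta
Lif (chr11:4257365-4257424, plus strand): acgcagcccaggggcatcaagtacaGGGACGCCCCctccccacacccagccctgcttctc
Csf1 (chr3:107760589-107760648, minus strand): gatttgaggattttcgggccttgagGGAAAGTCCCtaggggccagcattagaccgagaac
Cxcl2, Nfkbie, Tnip1 and Nfkbia were higher in LPS, Cxcl1, Il6, Ccl20 and Lif were higher in hyperoxia, and Csf1 passed the test in neither direction. Cxcl1 and Cxcl2, neighbours on chromosome 5, carried the same 11 bases in capitals, which began 71 bases before the start of Cxcl1 and 97 bases before that of Cxcl2. The consensus was in the window of 6 of the 18 matched members that were higher in LPS and of 4 of the 10 that were lower. Saa3, Lcn2, C3, Traf1 and Ptgs2 held no match to the consensus in this window. A match is a description of the letters and not evidence of a bound site.

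The members split between the models rather than standing higher in LPS throughout. The acute phase genes Saa3 and Lcn2, the complement gene C3, and Traf1, Birc3, Tnf and Ccl5 were higher in LPS, by 4.34-fold for Birc3 to 20.2-fold for Saa3. Csf2, Ptgs2 and Ccl20 were higher in hyperoxia, by 18.9-fold, 7.66-fold and 7.01-fold. The genes of the core pathway itself, the subunits, the IKK genes and the IkB inhibitors, lay within 2.43-fold of each other in either direction. Counts were compared with edgeR's quasi-likelihood F test, and a gene was called at a Benjamini-Hochberg adjusted p under 0.05 over all genes tested. All 44 members were tested and 41 were called, which is 93.2% of the members against 75.8% of the 13805 genes tested. Of the 41, 28 were higher in LPS and 13 were lower, where 37.8% and 38% of all genes tested were called in those directions. The 3 members not called were Nfkb2, Tnfaip3 and Csf1. A difference of 2-fold or more separated the models for 26 members, 20 higher and 6 lower, or 59.1%, against 24.2% of all genes tested. The study counted genes at an unadjusted p under 0.05 and a fold of 4 or more in either direction, and by that rule 16 members (36.4%) differed, 13 higher and 3 lower, against 7.68% of all genes tested. The median log2 fold change of the members was 0.71 and that of all genes tested was -0.0091. Il1a, Cxcl2, Cxcl5, Nos2 and Cfb had fewer than 10 counts in every Hyp library and passed the filter on low counts through the LPS libraries alone, so they had to differ. In the same way Csf2, with 11, 7 and 12 counts in LPS, passed through the Hyp libraries. With at least 10 counts required in every library, 38 members were tested and 35 were called, 23 higher and 12 lower, against 76.3% of the 12541 genes tested.

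**Figure D2:**
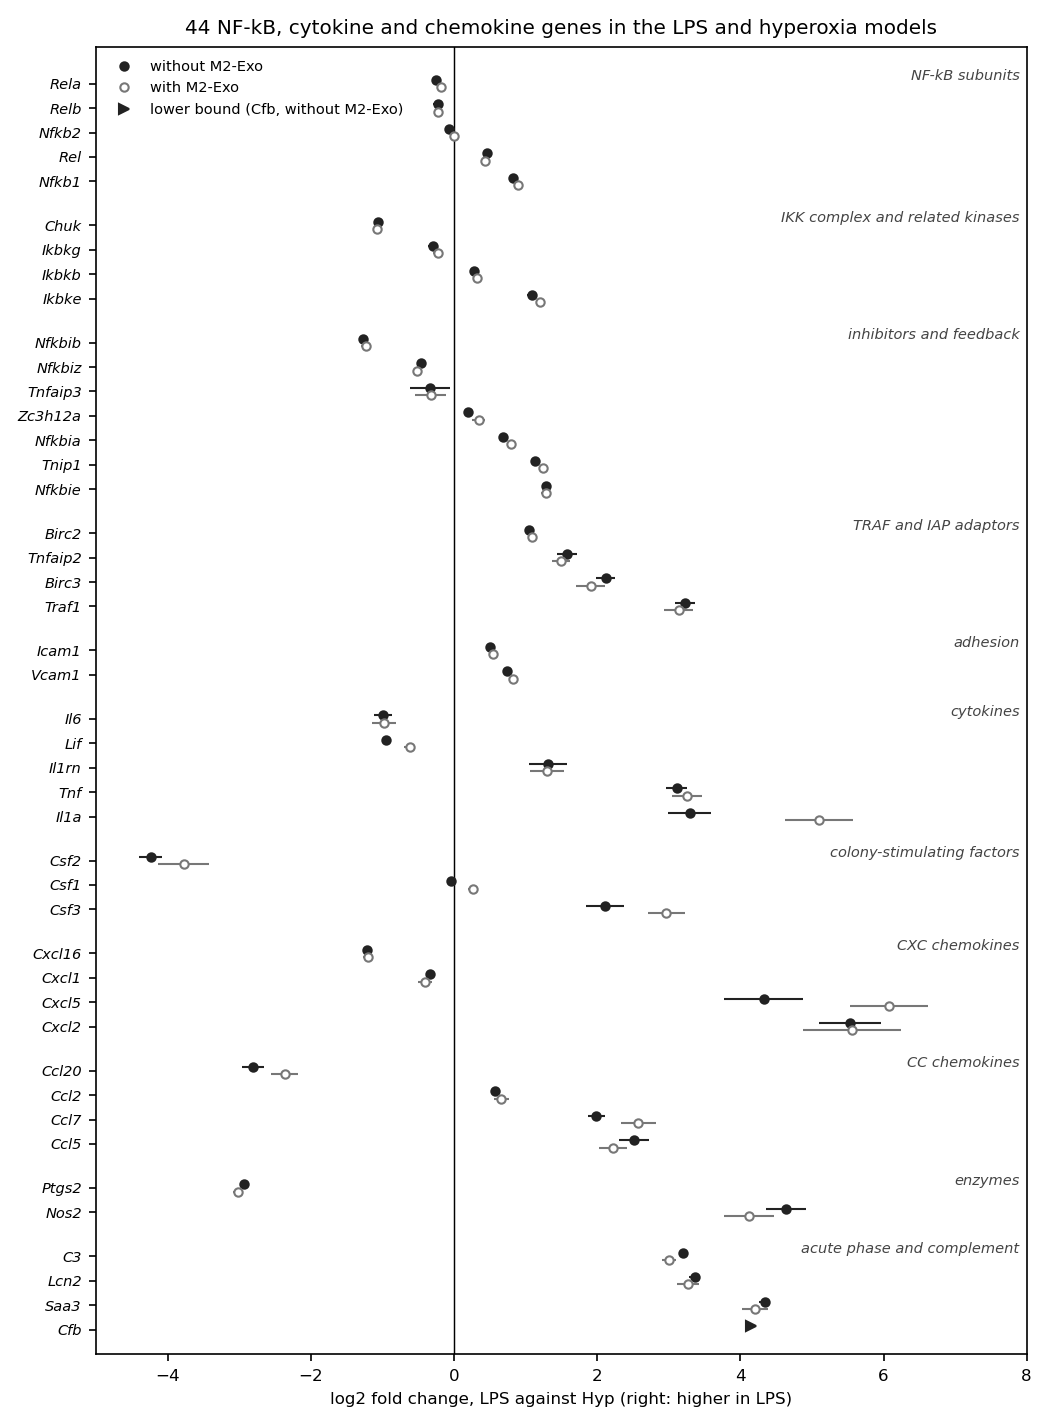
Log2 fold change of each member between LPS and Hyp without M2-Exo (filled) and between LPS + M2-Exo and Hyp + M2-Exo (open), grouped by role, with bars of 1 standard error. Points to the right of the line were higher in LPS. Csf2, Ptgs2 and Ccl20 lay far to the left and the acute phase genes far to the right in either setting. Cfb without M2-Exo is drawn at the lower bound of its fold change.

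Per length, the order of the members differed between the models. In LPS, Saa3 was the most abundant member with 768 ± 45.6 FPKM (mean ± SD, n = 3), followed by Nfkbia with 139 ± 2.91 FPKM and Ccl2 with 121 ± 6.59 FPKM. Saa3 stood above all others by more than their spread, and Nfkbia lay above Ccl2 by more than the SD of either. In Hyp, Nfkb2 was the most abundant with 119.8 ± 3.62 FPKM, followed by Rela with 99.4 ± 3.50 FPKM, Nfkbia with 92.6 ± 1.85 FPKM and Cxcl1 with 91.7 ± 5.43 FPKM. Nfkbia and Cxcl1 were closer to each other than their spread. Saa3 stood eighth in Hyp, with 40.4 ± 3.75 FPKM. At the other end, Cfb, Cxcl5 and Csf2 in LPS and Cfb, Cxcl5 and Cxcl2 in Hyp were the lowest, each under 1 FPKM.

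The IKK complex releases NF-kB from its inhibitors, and its genes split evenly. Chuk, which encodes IKKα, a catalytic subunit, stood at 84.6, 83.1 and 88.1 CPM (counts scaled to the library size after TMM normalisation) in LPS and at 177, 180.0 and 179 CPM in Hyp. Every Hyp library exceeded every LPS library, a difference of 2.09-fold (log2 fold change -1.06, SE 0.034, adjusted p = 9.01e-08). Ikbkg, which encodes the scaffold NEMO, had 72.7, 71.2 and 71.3 CPM in LPS and 86.4, 82.0 and 96.7 CPM in Hyp, also lower in LPS (log2 fold change -0.30, SE 0.063, adjusted p = 0.00273). Ikbkg overlaps G6pdx by position. Ikbkb, which encodes the other catalytic subunit IKKβ, had 188, 189.5 and 188 CPM in LPS and 156, 155 and 157 CPM in Hyp and was 1.21-fold higher in LPS (log2 fold change 0.28, SE 0.027, adjusted p = 3.35e-05). Ikbke, a related kinase that itself responds to NF-kB, had 82.4, 92.7 and 92.2 CPM in LPS and 43.7, 41.2 and 41.5 CPM in Hyp and was 2.12-fold higher in LPS (log2 fold change 1.08, SE 0.059, adjusted p = 1.09e-06). For each of the 4 genes the libraries of the models did not overlap, as was so for 78.8% of all genes tested. In the M2-Exo groups the values were 86.3 to 89.2 and 183 to 190.2 CPM for Chuk, 64.5 to 78.7 and 81.8 to 87.5 CPM for Ikbkg, 178 to 198 and 152 to 157 CPM for Ikbkb and 85.8 to 91.0 and 38.7 to 39.4 CPM for Ikbke, LPS + M2-Exo first.

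Among the subunits, Nfkb1 and Rel were higher in LPS, Rela and Relb were lower, and Nfkb2 was not called. Nfkb1, the precursor of p50, had 229.6, 233 and 222 CPM in LPS and 125, 131 and 133 CPM in Hyp (log2 fold change 0.82, SE 0.037, adjusted p = 4.33e-07), a difference of 1.76-fold with no overlap. Rel, which encodes c-Rel, had 92.4, 91.4 and 80.4 CPM in LPS and 65.6, 62.5 and 64.3 CPM in Hyp (log2 fold change 0.46, SE 0.060, adjusted p = 1.79e-04). Rela, the p65 subunit of the most common dimer, had 209, 225 and 228 CPM in LPS and 256, 259.9 and 272 CPM in Hyp, lower in LPS by 1.19-fold (log2 fold change -0.25, SE 0.042, adjusted p = 8.96e-04). Relb, the partner of p52, had 85.7, 99.8 and 101 CPM in LPS and 109, 110.0 and 117 CPM in Hyp (log2 fold change -0.22, SE 0.066, adjusted p = 0.0149). Nfkb2, the precursor of p52, ranged from 6704 to 7182 counts in LPS and from 8641 to 9828 counts in the deeper Hyp libraries, and after scaling the groups overlapped (log2 fold change -0.071, SE 0.038, adjusted p = 0.121). Subunit activity is controlled mainly by where the protein lies, which RNA does not show. With M2-Exo, Nfkb1 had 205 to 234 and 112 to 127 CPM in LPS + M2-Exo and Hyp + M2-Exo, Rel had 80.8 to 90.1 and 63.4 to 65.7 CPM, Rela had 198 to 236 and 241 to 252 CPM, and Relb had 89.1 to 100.2 and 108 to 114 CPM.

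Of the 7 inhibitors and feedback genes, 4 were higher in LPS, 2 were lower and 1 was not called, a share near the 75.8% of all genes tested that were called. Nfkbie, which encodes IkBε, had 65.6, 65.8 and 67.1 CPM in LPS and 25.7, 27.4 and 28.8 CPM in Hyp, 2.43-fold higher in LPS (log2 fold change 1.28, SE 0.056, adjusted p = 3.71e-07). Nfkbib, which encodes IkBβ, went the other way with 21.9, 22.5 and 22.6 CPM in LPS and 53.7, 52.2 and 57.2 CPM in Hyp, 2.43-fold lower in LPS (log2 fold change -1.28, SE 0.056, adjusted p = 3.69e-07). The genes of these IkB proteins thus differed by a like amount in opposite directions, although Nfkbib overlaps Sirt2 by position. Nfkbia, which encodes IkBα, an inhibitor that NF-kB itself induces, had 221, 231 and 229 CPM in LPS and 144, 139 and 144 CPM in Hyp (log2 fold change 0.68, SE 0.032, adjusted p = 5.55e-07). Tnip1, which encodes ABIN1, a partner of A20, had 261, 249.5 and 254 CPM in LPS and 124, 109 and 116 CPM in Hyp (log2 fold change 1.13, SE 0.049, adjusted p = 3.61e-07). Both were higher in LPS without overlap, as was Zc3h12a, the RNase Regnase-1 that degrades Il6 mRNA, by a small margin. Zc3h12a had 55.0, 49.5 and 52.4 CPM in LPS and 46.7, 46.1 and 44.7 CPM in Hyp (log2 fold change 0.20, SE 0.054, adjusted p = 0.0109), and it lost the call with library size alone in place of TMM. Nfkbiz, a nuclear IkB protein that helps to switch on a subset of targets, had 66.1, 73.2 and 69.2 CPM in LPS and 94.6, 96.4 and 97.4 CPM in Hyp and was lower in LPS (log2 fold change -0.47, SE 0.047, adjusted p = 3.71e-05).

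Tnfaip3, which encodes the deubiquitinase A20, differed more within the groups than between them. It had 91.9, 165 and 102 CPM in LPS, 113, 166 and 198 CPM in LPS + M2-Exo, 124, 216 and 117 CPM in Hyp and 225, 233 and 148 CPM in Hyp + M2-Exo. Each group held at least 1 library far above the lowest of the same group, and the groups overlapped (log2 fold change -0.34, SE 0.28, adjusted p = 0.306). Its SD within groups was 0.43 on the log2 CPM scale, against a median of 0.11 over the 14187 genes tested in all 12 libraries. For the other members of this role, the ranges with M2-Exo were 59.3 to 66.3 CPM in LPS + M2-Exo and 24.1 to 27.3 CPM in Hyp + M2-Exo for Nfkbie, 20.5 to 22.7 and 49.6 to 55.8 CPM for Nfkbib, and 227 to 233 and 125 to 147 CPM for Nfkbia. They were 237 to 269.7 and 105 to 109 CPM for Tnip1, 48.1 to 50.3 and 36.1 to 44.5 CPM for Zc3h12a, and 60.6 to 68.6 and 86.6 to 98.3 CPM for Nfkbiz.

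All 4 genes grouped as adaptors were higher in LPS, as were 37.8% of all genes tested, and each by more than 2-fold. Traf1, an adaptor of TNF receptors whose gene NF-kB induces, had 10.4, 10.2 and 10.9 CPM in LPS, 6.31, 7.60 and 9.09 CPM in LPS + M2-Exo, 1.37, 1.02 and 0.967 CPM in Hyp and 1.000, 0.804 and 0.815 CPM in Hyp + M2-Exo. The LPS libraries stood highest, the LPS + M2-Exo libraries below them and the hyperoxia libraries near 1 CPM, and LPS exceeded Hyp 9.35-fold (log2 fold change 3.22, SE 0.14, adjusted p = 3.83e-07). Birc3, which encodes the ubiquitin ligase cIAP2, had 12.8, 16.5 and 12.9 CPM in LPS and 3.41, 3.31 and 3.02 CPM in Hyp, 4.34-fold higher in LPS (log2 fold change 2.12, SE 0.13, adjusted p = 2.43e-06). Birc2, its neighbour on chromosome 9 that encodes cIAP1, had 65.5, 63.7 and 59.4 CPM in LPS and 29.7, 31.1 and 30.9 CPM in Hyp, 2.06-fold higher (log2 fold change 1.04, SE 0.055, adjusted p = 9.36e-07). Tnfaip2, a TNF-induced gene, had 56.3, 62.7 and 55.2 CPM in LPS and 22.0, 21.9 and 14.9 CPM in Hyp, 2.98-fold higher (log2 fold change 1.57, SE 0.14, adjusted p = 2.11e-05). The libraries of the models overlapped for none of the 4 genes, where 78.8% of all genes tested had none either. In LPS + M2-Exo and Hyp + M2-Exo the ranges were 12.4 to 13.3 and 2.25 to 4.29 CPM for Birc3, 60.4 to 61.9 and 27.9 to 30.2 CPM for Birc2 and 46.7 to 52.3 and 15.4 to 21.8 CPM for Tnfaip2.

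Of the adhesion molecules that hold leukocytes, Vcam1 was the more abundant, with 929.8, 858 and 959.6 CPM in LPS and 560.1, 540.1 and 551 CPM in Hyp (log2 fold change 0.74, SE 0.045, adjusted p = 1.98e-06). Icam1, which binds the integrins of neutrophils, had 80.7, 82.4 and 88.7 CPM in LPS and 60.8, 60.6 and 57.0 CPM in Hyp (log2 fold change 0.50, SE 0.052, adjusted p = 4.42e-05). Both were higher in LPS by less than 2-fold and without overlap. The M2-Exo groups held 964 to 1006 and 534 to 603 CPM of Vcam1 and 77.7 to 83.0 and 53.3 to 59.0 CPM of Icam1.

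The cytokines divided between the models. Tnf, the TNF gene, had 13.0, 14.2 and 11.7 CPM in LPS, 11.2, 11.4 and 9.87 CPM in LPS + M2-Exo, 1.496, 1.77 and 1.25 CPM in Hyp and 1.58, 0.893 and 0.911 CPM in Hyp + M2-Exo. All 6 libraries with LPS lay above all 6 from hyperoxia, and LPS exceeded Hyp 8.65-fold (log2 fold change 3.11, SE 0.15, adjusted p = 5.12e-07). Il6, which encodes the fever and acute phase cytokine IL-6, was the reverse, with 8.45, 6.15 and 7.82 CPM in LPS, 7.11, 6.14 and 9.09 CPM in LPS + M2-Exo, 13.8, 14.9 and 16.2 CPM in Hyp and 16.7, 12.3 and 15.6 CPM in Hyp + M2-Exo. Il6 was 2.00-fold lower in LPS than in Hyp (log2 fold change -0.998, SE 0.13, adjusted p = 1.50e-04), again without overlap. Lif, a cytokine of the IL-6 family, also stood lower in LPS, at 44.9, 42.8 and 41.7 CPM, 49.5, 47.2 and 54.9 CPM with M2-Exo, 86.4, 81.2 and 82.4 CPM in Hyp and 87.0, 75.1 and 73.8 CPM in Hyp + M2-Exo (log2 fold change -0.95, SE 0.049, adjusted p = 8.66e-07). Il1rn, which encodes the antagonist of the IL-1 receptor, had 7.57, 9.81 and 5.38 CPM in LPS and 2.87, 4.06 and 2.30 CPM in Hyp (log2 fold change 1.31, SE 0.27, adjusted p = 0.00236), and 5.33 to 10.3 and 2.90 to 3.33 CPM in the M2-Exo groups. Il1a, which encodes IL-1α, was sparse. It had 41, 28 and 32 counts in LPS, 27, 30 and 29 in LPS + M2-Exo, 5, 4 and 4 in Hyp and 2, 0 and 1 in Hyp + M2-Exo. LPS exceeded Hyp (log2 fold change 3.29, SE 0.30), but Il1a passed the filter on low counts through the LPS libraries alone, so no p-value is given. Il1a overlaps Gm14023.

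**Figure D3:**
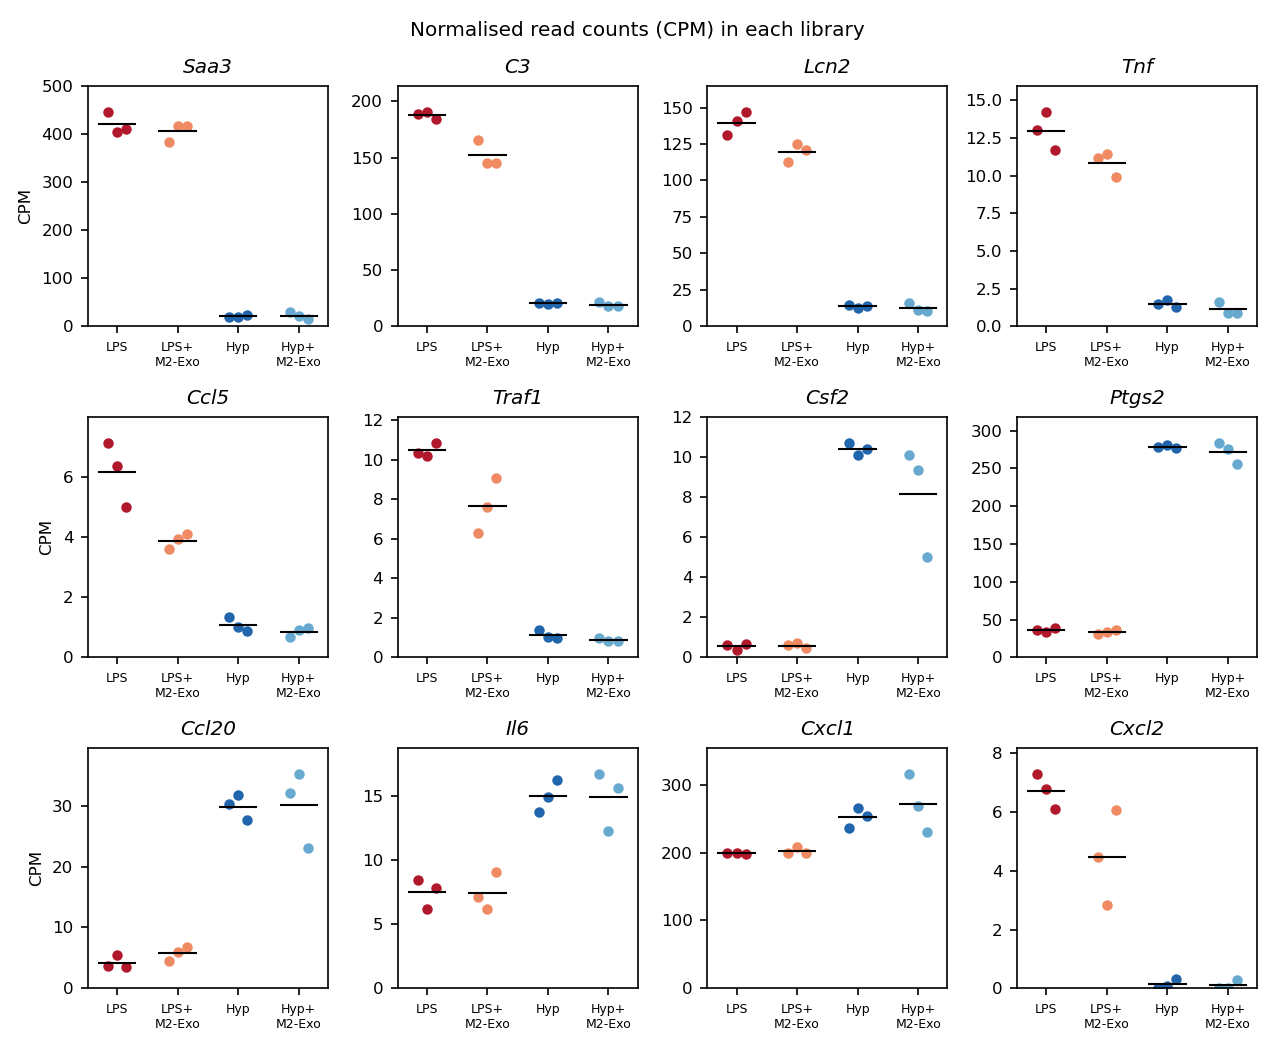
Normalised read counts (CPM) of 12 members in every library, with a line at the mean of each group of 3. In the upper panels Saa3, C3, Lcn2, Tnf, Ccl5 and Traf1 stood higher in the LPS libraries, whereas Csf2, Ptgs2, Ccl20, Il6 and Cxcl1 stood higher in the hyperoxia libraries. Cxcl2, unlike Cxcl1, was near 0 in hyperoxia.

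The colony-stimulating factors were split between the models. Csf2, which encodes GM-CSF, the factor that alveolar macrophages need, had 0.604, 0.377 and 0.652 CPM in LPS, 0.613, 0.697 and 0.449 CPM in LPS + M2-Exo, 10.7, 10.1 and 10.4 CPM in Hyp and 10.1, 9.34 and 4.99 CPM in Hyp + M2-Exo. It was 18.9-fold lower in LPS than in Hyp (log2 fold change -4.24, SE 0.16), on 11, 7 and 12 counts in LPS against 258, 229 and 258 in Hyp. With so few counts in LPS, Csf2 passed the filter on low counts through the Hyp libraries, so no p-value is given. Csf2 overlaps Gm12223 by position, and it was not tested where at least 10 counts were required in every library. Csf3, which encodes G-CSF, the neutrophil growth factor, went the other way with 3.84, 3.67 and 2.88 CPM in LPS, 3.25, 2.72 and 3.42 CPM in LPS + M2-Exo, 0.872, 1.06 and 0.484 CPM in Hyp and 0.542, 0.357 and 0.288 CPM in Hyp + M2-Exo. Csf3 was 4.32-fold higher in LPS (log2 fold change 2.11, SE 0.27, adjusted p = 1.56e-04). Csf1, the macrophage growth factor M-CSF and the most abundant of these genes, had 269.7, 262 and 289 CPM in LPS, 294, 294 and 308 CPM in LPS + M2-Exo, 292, 280.5 and 279 CPM in Hyp and 279.7, 249.01 and 229 CPM in Hyp + M2-Exo. LPS and Hyp overlapped for Csf1 (log2 fold change -0.048, SE 0.042, adjusted p = 0.321).

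The chemokines of the CXC family attract neutrophils through CXCR2 in the case of Cxcl1, Cxcl2 and Cxcl5, which lie close together on chromosome 5. They did not move together. Cxcl1 was abundant in all groups, with 199, 199.7 and 197 CPM in LPS, 199.98, 208 and 199.8 CPM in LPS + M2-Exo, 236, 265 and 254 CPM in Hyp and 316, 269 and 230.1 CPM in Hyp + M2-Exo, and it was 1.27-fold lower in LPS than in Hyp (log2 fold change -0.34, SE 0.044, adjusted p = 1.69e-04). Cxcl2 had 133, 126 and 112 counts in LPS, 73, 45 and 108 in LPS + M2-Exo, 0, 2 and 8 in Hyp and 0, 0 and 6 in Hyp + M2-Exo. LPS exceeded Hyp in all libraries (log2 fold change 5.53, SE 0.43), although the few reads in hyperoxia leave the size of the fold loosely set. Cxcl5 had 22, 18 and 28 counts in LPS, 23, 23 and 25 in LPS + M2-Exo, 3, 1 and 0 in Hyp and 0, 1 and 0 in Hyp + M2-Exo (log2 fold change between LPS and Hyp 4.33, SE 0.55). Cxcl2 and Cxcl5 passed the filter on low counts through the LPS libraries alone, so no p-value is given for them. Cxcl16, a membrane-bound chemokine for T cells, was lower in LPS with 36.8, 37.8 and 39.3 CPM against 85.6, 92.3 and 87.4 CPM in Hyp (log2 fold change -1.21, SE 0.050, adjusted p = 2.83e-07), and it had 33.8 to 37.0 and 80.7 to 85.9 CPM in the M2-Exo groups. Cxcl16 overlaps Zmynd15.

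Among the CC chemokines, Ccl5, Ccl7 and Ccl2 were higher in LPS and Ccl20 was lower. Ccl5, which attracts T cells and monocytes, had 7.13, 6.36 and 5.00 CPM in LPS, 3.62, 3.93 and 4.09 CPM in LPS + M2-Exo, 1.33, 1.02 and 0.887 CPM in Hyp and 0.667, 0.893 and 0.959 CPM in Hyp + M2-Exo. LPS stood highest and was 5.71-fold above Hyp (log2 fold change 2.51, SE 0.21, adjusted p = 1.18e-05). Ccl7, a monocyte attractant, had 11.03, 13.3 and 11.1 CPM in LPS and 2.82, 2.87 and 3.27 CPM in Hyp, 3.96-fold higher in LPS (log2 fold change 1.99, SE 0.12, adjusted p = 2.10e-06). Ccl2, the main monocyte attractant and by far the more abundant, had 251.4, 233 and 230.3 CPM in LPS and 172, 157 and 152 CPM in Hyp (log2 fold change 0.58, SE 0.054, adjusted p = 2.63e-05). The ranges in LPS + M2-Exo and Hyp + M2-Exo were 12.0 to 14.7 and 1.34 to 3.12 CPM for Ccl7 and 241 to 264 and 135 to 190.5 CPM for Ccl2, which overlaps Gm17268. Ccl20, which attracts lymphocytes and dendritic cells through CCR6, had 3.73, 5.44 and 3.53 CPM in LPS, 4.54, 6.02 and 6.73 CPM in LPS + M2-Exo, 30.2, 31.8 and 27.6 CPM in Hyp and 32.1, 35.2 and 23.1 CPM in Hyp + M2-Exo. No LPS library came near a hyperoxia library, and Ccl20 was 7.01-fold lower in LPS (log2 fold change -2.81, SE 0.15, adjusted p = 9.32e-07).

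The inducible enzymes were opposite to each other. Ptgs2, which encodes cyclooxygenase-2 of prostaglandin synthesis, had 36.0, 34.0 and 38.9 CPM in LPS, 30.4, 33.0 and 36.1 CPM in LPS + M2-Exo, 279, 281 and 277 CPM in Hyp and 284, 276 and 256 CPM in Hyp + M2-Exo, and it was 7.66-fold lower in LPS (log2 fold change -2.94, SE 0.050, adjusted p = 1.38e-08). Nos2, which encodes the inducible nitric oxide synthase, had 100, 78 and 117 counts in LPS, 88, 55 and 93 in LPS + M2-Exo, 4, 5 and 6 in Hyp and 10, 3 and 5 in Hyp + M2-Exo. Nos2 was 24.9-fold higher in LPS than in Hyp (log2 fold change 4.64, SE 0.27), from very few reads in hyperoxia. Nos2 passed the filter on low counts through the LPS libraries alone, so no p-value is given.

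The acute phase and complement genes were all higher in LPS. Saa3, an acute phase serum amyloid, had 447, 405 and 411 CPM in LPS, 385, 417 and 417 CPM in LPS + M2-Exo, 20.4, 19.2 and 22.9 CPM in Hyp and 29.2, 21.4 and 16.1 CPM in Hyp + M2-Exo, 20.2-fold higher in LPS than in Hyp (log2 fold change 4.34, SE 0.074, adjusted p = 1.38e-08). Lcn2, which encodes the iron-siderophore binding protein lipocalin-2, had 131, 141 and 147 CPM in LPS, 112, 125 and 121 CPM in LPS + M2-Exo, 14.4, 12.3 and 14.2 CPM in Hyp and 16.1, 11.03 and 10.5 CPM in Hyp + M2-Exo, 10.3-fold higher (log2 fold change 3.36, SE 0.076, adjusted p = 2.74e-08). C3, the central complement component, had 189, 191 and 184 CPM in LPS, 165, 145 and 145 CPM in LPS + M2-Exo, 21.1, 20.005 and 20.5 CPM in Hyp and 21.8, 18.0 and 17.7 CPM in Hyp + M2-Exo, 9.18-fold higher (log2 fold change 3.20, SE 0.039, adjusted p = 5.64e-09). For each of these genes the 6 libraries with LPS stood far above the 6 from hyperoxia. Cfb, which encodes complement factor B, had 46, 43 and 41 counts in LPS, 15, 0 and 9 in LPS + M2-Exo, 0, 0 and 0 in Hyp and 2, 0 and 0 in Hyp + M2-Exo. Against a floor of 3 counts in a Hyp library, Cfb was at least 17.8-fold higher in LPS, a bound that covers counting error only. Of the 50-base stretches of its transcripts, 74.2% are shared with the overlapping gene Gm20547, so its count is uncertain.

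The comparison of the models was then made in the libraries given M2-Exo, which share no library with the first. Here 43 members were tested, all but Cfb, and 41 were called, 28 higher and 13 lower in LPS + M2-Exo, against 73.7% of the 13660 genes tested in all, 36.5% higher and 37.1% lower. Il1a, Cxcl2 and Cxcl5 had fewer than 10 counts in every Hyp + M2-Exo library and passed the filter through the LPS + M2-Exo libraries alone, so they had to be higher there. Nos2, with 10, 3 and 5 counts in Hyp + M2-Exo, and Csf3, with 13, 8 and 6, likewise passed through the LPS + M2-Exo libraries. Csf2, with 10, 11 and 8 counts in LPS + M2-Exo, passed through the Hyp + M2-Exo libraries. With at least 10 counts required in every library, 37 members were tested and 35 were called, 23 higher and 12 lower, against 74.3% of the 12393 genes tested. By the rule of the study 15 members differed, against 7.2% of all genes tested. Of the members, 40 were called in both comparisons, 27 higher in LPS each time and 13 lower each time, and 0 were called in opposite directions. Of the 13535 genes tested in both comparisons, 67.8% were called in the same direction each time. The log2 fold changes of the members differed between the comparisons by a median of 0.085, against 0.11 over those genes. The largest difference was that of Il1a, whose log2 fold change with M2-Exo was 5.10 (SE 0.47), on 2, 0 and 1 counts in Hyp + M2-Exo, a ratio of 38.6 with a 95% counting interval of 12.8 to 191. Csf2 was 13.8-fold lower (log2 fold change -3.78, SE 0.36), Ptgs2 was 8.12-fold lower (log2 fold change -3.02, SE 0.067, adjusted p = 4.63e-08) and Ccl20 was 5.17-fold lower (log2 fold change -2.37, SE 0.19, adjusted p = 1.13e-05) in LPS + M2-Exo. Saa3 was 18.4-fold higher (log2 fold change 4.20, SE 0.18, adjusted p = 4.14e-07) and Tnf 9.53-fold higher (log2 fold change 3.25, SE 0.21, adjusted p = 3.15e-06). Csf1, which was not called without M2-Exo, was higher in LPS + M2-Exo (log2 fold change 0.26, SE 0.067, adjusted p = 0.00848). Rela (log2 fold change -0.18, SE 0.061, adjusted p = 0.0251) and Ikbkg (log2 fold change -0.23, SE 0.070, adjusted p = 0.0173) stood nearest the threshold.

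M2-Exo were added to ask what they change in each model, and for these members the changes were small. In LPS + M2-Exo against LPS, 0 of the 44 members passed edgeR's test, against 0.187% of the 13353 genes tested. An unadjusted p under 0.05 was reached by 10 members, against 11.1% of all genes tested, and DESeq2 called 1 member, C3. The rule of the study took 1 member, Cfb, against 0.0225% of all genes tested. Cfb had 46, 43 and 41 counts in LPS and 15, 0 and 9 in LPS + M2-Exo. It passed the filter on low counts through the LPS libraries, so its direction was fixed and no p-value is given, although the 10 members include it. Of its 50-base stretches, 74.2% are shared with Gm20547. C3 was lower in every LPS + M2-Exo library than in every LPS library (log2 fold change -0.29, SE 0.056, adjusted p = 0.159), and with DESeq2 its adjusted p was 0.00252. Without LPS + M2-Exo replicate 1, edgeR called C3 as well, at a log2 fold change of -0.36 and an adjusted p of 0.0201. Ccl5 (log2 fold change -0.65, SE 0.16, adjusted p = 0.226), Lcn2 (log2 fold change -0.21, SE 0.056, adjusted p = 0.261), Traf1 (log2 fold change -0.43, SE 0.13, adjusted p = 0.307), Tnfaip2 (log2 fold change -0.19, SE 0.067, adjusted p = 0.35), Cxcl2 (log2 fold change -0.57, SE 0.23, adjusted p = 0.43), Cfb (log2 fold change -2.26, SE 0.55) and Tnf (log2 fold change -0.25, SE 0.11, adjusted p = 0.466) also had all LPS + M2-Exo libraries below all LPS libraries. These 8 members, which include Cfb, compare with 11.1% of all genes tested whose libraries lay apart in that direction. Lif (log2 fold change 0.25, SE 0.064, adjusted p = 0.244), Csf1 (log2 fold change 0.14, SE 0.040, adjusted p = 0.262), Vcam1 (log2 fold change 0.12, SE 0.043, adjusted p = 0.358) and Cxcl1 (log2 fold change 0.048, SE 0.036, adjusted p = 0.684) had all LPS + M2-Exo libraries above all LPS libraries, against 5.5% of all genes tested. In the same comparison 8 of the 15 macrophage markers had all LPS + M2-Exo libraries below all LPS libraries, 9 of the 12 tested had an unadjusted p under 0.05 and 0 passed edgeR's test. The part of macrophage RNA in the lower values of C3, Ccl5, Tnf and the others was not tested.

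**Figure D4:**
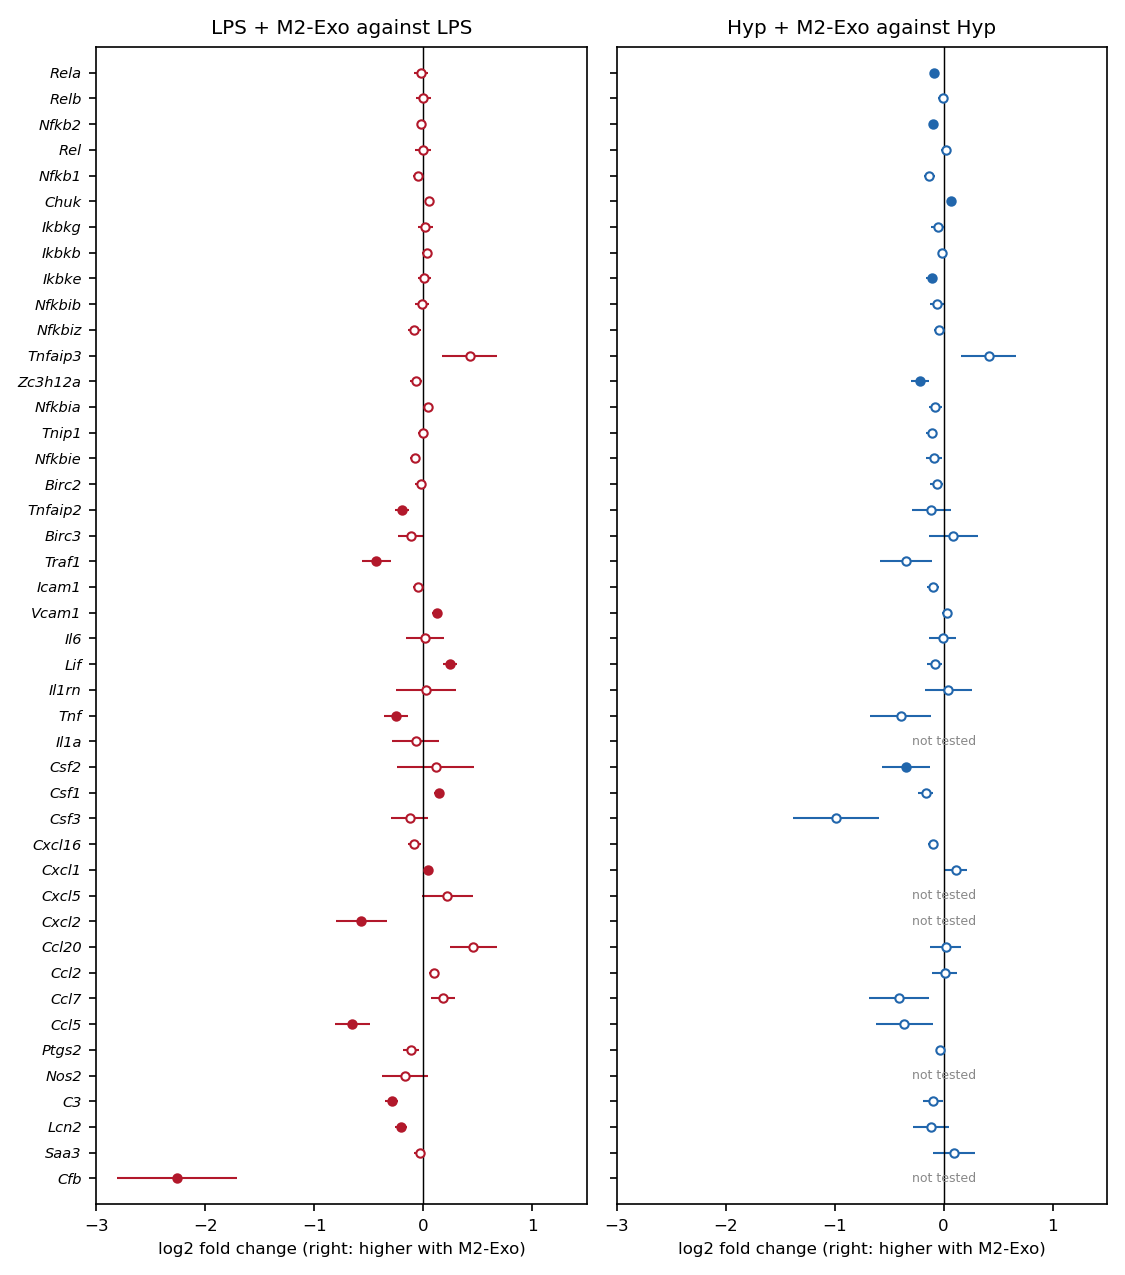
Log2 fold change of each member with M2-Exo against without it, in LPS (left) and hyperoxia (right), with bars of 1 standard error. Filled points had all 3 libraries of a group on 1 side of the other group and open points overlapped. Most members lay near 0, and none passed edgeR's test in either model. In hyperoxia 5 members were not tested because their counts were too low.

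In Hyp + M2-Exo against Hyp, 39 members passed the filter and 0 of them passed edgeR's test, against 0.101% of the 13815 genes tested. The 5 others, Il1a, Cxcl2, Cxcl5, Nos2 and Cfb, had 0 to 10 counts in every hyperoxia library. An unadjusted p under 0.05 was reached by 6 members, against 8.48% of all genes tested, and DESeq2 called 0 members. The rule of the study took 0 members, against 0.0434% of all genes tested. The 6 were Nfkb2 (log2 fold change -0.10, SE 0.033, adjusted p = 0.544), Zc3h12a (log2 fold change -0.21, SE 0.081, adjusted p = 0.575), Csf3 (log2 fold change -0.99, SE 0.39), Csf1 (log2 fold change -0.17, SE 0.067, adjusted p = 0.575), Rela (log2 fold change -0.090, SE 0.037, adjusted p = 0.575) and Nfkb1 (log2 fold change -0.13, SE 0.054, adjusted p = 0.577), each with a negative fold change. The lowest and highest log2 fold changes over the 39 members were -0.99 for Csf3 and 0.41 for Tnfaip3, and the median was -0.08. Csf3 had 21, 24 and 12 counts in Hyp and 13, 8 and 6 in Hyp + M2-Exo. It passed the filter on low counts through the Hyp libraries, so no p-value is given. The SD of Tnfaip3 within groups was 0.43 on the log2 CPM scale. The Hyp + M2-Exo libraries lay below all Hyp libraries for Nfkb2, Zc3h12a, Rela, Ikbke and Csf2 among the members tested and for Il1a, against 8.22% of all genes tested, and above them for Chuk, against 7.35%.

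Whether M2-Exo acted differently in the models was tested by the interaction term over all 12 libraries, where a positive value means a higher fold change with M2-Exo in LPS than in hyperoxia. None of the 44 members passed, against 0.0352% of the 14187 genes tested, and 3 reached an unadjusted p under 0.05, where 9.78% of all genes tested did. These were Csf1 (log2 fold change 0.30, SE 0.086, adjusted p = 0.295), Lif (log2 fold change 0.32, SE 0.10, adjusted p = 0.34) and Il1a (log2 fold change 1.81, SE 0.68, adjusted p = 0.431). Csf1 passed when Hyp + M2-Exo replicate 1 was left out, at a difference of 0.39 and an adjusted p of 0.0437. For no other member was the difference called under any alternative that was run.

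Few of the receptors and signalling proteins upstream of IKK differed 2-fold or more between the models. Of a list of 41 such genes 40 were tested in LPS against Hyp, of which 11 were higher, 17 were lower and 12 were not called, and 3 differed 2-fold or more. The share called was 70%, against 75.8% of all genes tested, and 24.2% of all genes tested differed 2-fold or more. The list had a median log2 fold change of -0.027. Cd40, a receptor of the TNF family that signals to NF-kB, had 4.28, 3.94 and 3.75 CPM in LPS and 0.582, 0.618 and 0.403 CPM in Hyp (log2 fold change 2.90, SE 0.20). In Hyp these were 14, 14 and 10 counts, so Cd40 passed the filter on low counts through the LPS libraries and no p-value is given. Cd14, the co-receptor of LPS and also a macrophage marker, had 48.5, 48.5 and 43.0 CPM in LPS and 22.5, 23.9 and 21.4 CPM in Hyp (log2 fold change 1.05, SE 0.071, adjusted p = 3.68e-06). Irak3, an inhibitory kinase of the TLR pathway (log2 fold change 1.02, SE 0.077, adjusted p = 7.16e-06), and the TNF receptor gene Tnfrsf1b (log2 fold change 0.89, SE 0.034, adjusted p = 2.09e-07) were the next highest. On the other side, Ly96, which encodes the LPS-binding protein MD-2, had 26, 42 and 26 counts in LPS and 72, 90 and 77 in Hyp (log2 fold change -0.97, SE 0.23, adjusted p = 0.00488). Irak2 (log2 fold change -0.77, SE 0.15, adjusted p = 0.00152), the TAK1 partner Tab3 (log2 fold change -0.75, SE 0.050, adjusted p = 3.62e-06) and Map3k14, which encodes the NIK kinase (log2 fold change -0.73, SE 0.059, adjusted p = 1.04e-05), followed. The LPS co-receptors Cd14 and Ly96 thus stood on opposite sides.

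A further list of 50 targets of NF-kB, chosen beside the members, held 39 genes that were tested, with 23 higher in LPS, 9 lower and 7 not called. The share called was 82.1%, against 75.8% of all genes tested. Among the 39, Ccl17, Bcl2a1a, Cxcl12, Mmp9 and Tnfsf10 had fewer than 10 counts in every Hyp library. They passed the filter on low counts through the LPS libraries alone, so they had to be higher there, and both counts include them. Ccl4, Cxcl15, Il1b and Tnfsf15 had somewhat more counts in Hyp and likewise passed through the LPS libraries. Among the genes averaging 50 counts or more in the higher group, the chemokines Ccl3 and Ccl4, which are made in large amounts by macrophages, had the largest fold changes toward LPS. Ccl3 had 61.3, 66.6 and 61.0 CPM in LPS and 2.49, 2.34 and 3.39 CPM in Hyp (log2 fold change 4.52, SE 0.12, adjusted p = 4.78e-08), and Ccl4 had 10.3, 11.8 and 9.62 and 0.457, 0.707 and 0.363 CPM (log2 fold change 4.38, SE 0.20). Cxcl15, a lung chemokine (log2 fold change 3.99, SE 0.20), and the metalloreductase Steap4 (log2 fold change 3.66, SE 0.13, adjusted p = 1.34e-07) followed. In Hyp, Ccl4 had only 11, 16 and 9 counts and Cxcl15 only 9, 13 and 8, so no p-value is given for them. Mmp13, a collagenase, was the lowest, with 0.494, 0.216 and 0.543 CPM in LPS and 8.81, 9.49 and 10.4 CPM in Hyp (log2 fold change -4.50, SE 0.22). These were 9, 4 and 10 counts in LPS and 212, 215 and 257 in Hyp. Mmp13 passed the filter on low counts through the Hyp libraries, so no p-value is given. Plaur, the urokinase receptor, had 12.4, 14.2 and 16.1 CPM in LPS and 64.6, 59.2 and 61.9 CPM in Hyp (log2 fold change -2.11, SE 0.094, adjusted p = 3.94e-07), and Ccl25 (log2 fold change -1.58, SE 0.10, adjusted p = 2.23e-06) and Il11 (log2 fold change -1.21, SE 0.22, adjusted p = 0.00138) were also lower in LPS. Neither list had a gene that passed edgeR's test in either M2-Exo comparison, with smallest adjusted p-values of 0.207 upstream and 0.177 among the targets in LPS and 0.566 for both in hyperoxia.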

How the data were processed

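The authors deposited whole-number read counts per gene, not normalized, and FPKM for 12 libraries of MLE-12 cells. The deposited FPKM followed from the counts, the gene length and the library total to a relative 0.000928. Reads were filtered with Seqtk, mapped with HISAT2 2.0.4 and processed with StringTie 1.3.0 and edgeR on GRCm38, per the submitters' processing notes and the methods. The counting program and the annotation are not given in the sources used here. The methods name Trizol for the RNA, and the labels name an RNeasy kit and a TruSeq poly(A) library, which does not mark strand, so genes that overlap (12 of the members) cannot be separated by strand. The 12 were Nfkb1, Nfkb2, Ikbkb, Ikbke, Ikbkg, Nfkbib, Vcam1, Il1a, Csf2, Cxcl16, Ccl2 and Cfb. All per-library columns were used (0 left out).

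Groups came from the sample titles. Counts were tested in R 4.3.3 with edgeR 4.0.16 (filterByExpr, TMM, quasi-likelihood F test) on the 6 libraries of each comparison, and on all 12 for the interaction, with Benjamini-Hochberg adjustment over all genes tested. Fold changes are log2 with standard errors, and CPM used TMM-scaled library sizes. The fit was tested on simulated data. The floor for a count of 0 was 3 counts. Intervals and floors cover counting error only.

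The members, the lists of upstream genes, further targets and cell markers, and the tests were chosen with earlier results of these data known. Every member is accounted for. Members called in at least 1 comparison and averaging 50 counts or more in their higher group have their values given, and others their counts. Members that passed the filter for a pair of groups through 1 group alone, Csf2 and Csf3 among them, have no p-value for that pair. Their counts are given instead, and genes of the lists were treated alike. From each list up to 4 called genes per direction with the largest fold change and that mean count were named. Genes named for the macrophage markers come from the marker list.

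Alternatives were RLE or library size alone, no filter, at least 10 counts in every library, the DESeq2 1.42.0 Wald test, all 12 libraries in a fit, a replicate block, limma 3.58.1 on log2(FPKM + 1) with a mean FPKM of at least 1, the thresholds of the study (unadjusted p under 0.05 and a fold of 4 or more either way, which is 2 on the log2 scale) and each library left out in turn. Promoters came from RefSeq (GRCm38.p6).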

Additional observations from a re-analysis of the deposited data

How the results depend on the processing

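The directions of the called members between the models held under every alternative that was run. For the 41 members called in LPS against Hyp, 559 of 561 values under the alternatives kept direction and call, 2 lost the call and 0 reversed. The 2 were Zc3h12a with library size alone and with limma. With M2-Exo, 557 of 562 kept both and 5 lost the call, which were Rela without 3 single libraries, Ikbkg without 1 and Csf1 with limma. When each library was dropped in turn, there were 41 to 42 called members in LPS against Hyp and 39 to 41 with M2-Exo, 0 to 1 for M2-Exo in LPS (C3, without LPS + M2-Exo replicate 1), 0 to 0 for M2-Exo in Hyp and 0 to 1 for the interaction (Csf1, without Hyp + M2-Exo replicate 1). Over all genes the ranges were 10046 to 10301, 9603 to 9913, 21 to 39, 12 to 21 and 4 to 34 in the same order, and the highest counts for M2-Exo in LPS and for the interaction came without LPS replicate 1 and without Hyp + M2-Exo replicate 1.

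The thresholds of the study left 16 members in LPS against Hyp, 15 with M2-Exo and 1 for M2-Exo in LPS (Cfb), and 1060, 983, 3, 6 and 36 of all genes in the 5 comparisons, a smaller count by construction of the fold threshold in the comparisons of the models. DESeq2 called 125 genes for M2-Exo in LPS, among them 1 member, 37 in Hyp and 67 for the interaction. All 12 libraries in 1 fit gave 12 and 2 genes for M2-Exo in LPS and Hyp, and no filter on low counts gave 13 for the interaction. The cause of these shifts was not tested. Against library size alone, the median log2 fold change of all genes in LPS against Hyp was -0.099, and 27 members were higher and 15 lower. With limma on FPKM, 37 members were tested, of which 20 were higher and 15 lower.

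With the replicate number as a block, 42, 41, 0, 0 and 0 members were called in the 5 comparisons, and 6, 8 and 3 of all genes for M2-Exo in LPS, M2-Exo in Hyp and the interaction. Same-numbered libraries correlated between -0.019 and 0.05 in their deviations from the group means, over 12 pairs of libraries and 14187 genes. Over 24 pairs with different numbers the range was -0.078 to 0.036. With 3 libraries per group this check cannot decide whether the numbers pair the samples.

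The precision rests on 3 libraries per group with a biological coefficient of variation of 8.78 to 9.41%, and on 16021833 to 24074616 counts per library. Members with few counts in hyperoxia (Il1a, Cxcl2, Cxcl5, Nos2 and Cfb) have a fold change in LPS against Hyp that depends on a handful of reads.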

Other observations

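Tlr4, the receptor of LPS, was picked out with its values in view, because single libraries stood far from the others of the same group. It had 62, 65 and 63 counts in LPS, 11, 9 and 74 in LPS + M2-Exo, 106, 14 and 87 in Hyp and 72, 65 and 72 in Hyp + M2-Exo. The values were even in LPS and in Hyp + M2-Exo, whereas 2 of the 3 LPS + M2-Exo libraries and 1 of the 3 Hyp libraries were several-fold lower than the rest. Tlr4 passed the test neither between LPS and Hyp (log2 fold change 0.27, SE 0.51, adjusted p = 0.65) nor between LPS + M2-Exo and LPS (log2 fold change -0.88, SE 0.59, adjusted p = 0.644), with edgeR's quasi-likelihood F test.

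Il1b and Myd88 were likewise chosen after seeing their values. Il1b, which encodes the cytokine IL-1β, had 28, 42 and 40 counts in LPS, 26, 39 and 33 in LPS + M2-Exo, 7, 8 and 11 in Hyp and 10, 5 and 2 in Hyp + M2-Exo, so all 6 libraries with LPS lay above all 6 from hyperoxia. Myd88, the adaptor that most TLRs use, had 55.0, 55.9 and 53.3 CPM in LPS and 61.3, 63.8 and 65.3 CPM in Hyp (log2 fold change -0.21, SE 0.046, adjusted p = 0.00362).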
